A study of Mus musculus with 8 samples.

Results

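The 4 h pair compares Neuro2A (N2A) cells, a mouse neuroblastoma line, given 2 µM HU210 for 4 h with N2A cells given the drug-free vehicle DMSO for the same 4 h. The pair is 2 of the 8 RNA-seq libraries, which cover HU210 and DMSO after 2 h, 4 h, 6 h or 8 h, and all 8 came from cells starved in serum-free medium with albumin before treatment. Each library held mRNA pooled from several independent experiments, so that every condition is 1 library with no replicate, the spread between experiments cannot be seen, and no test or p-value can be given for the 4 h pair. The members are the 16557 genes that the deposited table of the 4 h pair lists, out of 16980 listed at any time point. For each gene the change is the log2 of FPKM + 1 (FPKM being a fragment count corrected for transcript length and library size) in HU210 minus the same in DMSO. The 3 DMSO libraries of 2 h, 6 h and 8 h served as a second reference, against which each 4 h library was set. They come from other hours, so a departure from them can hold a time effect as well as library error.

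HU210 is a synthetic agonist of the cannabinoid receptor CB1, the product of Cnr1, which signals through inhibitory Gi/o proteins to kinases and transcription factors such as Stat3. In N2A cells its activation is known to promote neurite outgrowth, in which a round cell extends processes that need new membrane, cytoskeleton and energy. Many short-lived mRNAs carry AU-rich elements in their 3′ untranslated regions (UTRs), while ribosomal protein mRNAs are long-lived and abundant. Replication-dependent histone mRNAs are a class apart, since their ends form a stem-loop in place of a poly(A) tail and they are made in S phase.

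Cnr1 was present in all libraries, at 18.3 FPKM in HU210 4 h and 27.0 in DMSO 4 h, with 17.3, 20.2 and 24.7 in DMSO 2 h, 6 h and 8 h. The HU210 4 h value lay within the range of the other DMSO libraries. Neuroblastoma and neuronal markers were measured for 21 of 23 genes, with a median change of -0.18, and Phox2a, a transcription factor of sympathetic neurons, passed 1.5-fold (29.1 against 48.1 FPKM, change -0.71). The intermediate filament genes Nefl and Nefm were listed at or near 0 in both 4 h libraries, as were the 3 astrocyte markers and the 3 microglia and leukocyte markers, each under 1 FPKM. Of 4 oligodendrocyte markers 3 reached 1 FPKM, among them Mbp (3.77 and 4.50 in HU210 and DMSO) and Cnp (3.86 and 3.38). Of 6 fibroblast and endothelial markers Dcn, Pecam1 and Pdgfra reached 1 FPKM in a 4 h library, at 1.3 or less, and Col1a1, Cdh5 and Tek did not. None of these markers of other cell types passed 1.5-fold. The libraries held 11328 to 11444 genes of at least 1 FPKM, and the FPKM values do not carry the number of reads behind each gene.

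The sequences below are shown for the 2 kinds of transcript that stood lowest in the HU210 4 h library. The first are the ends of 4 replication-dependent histone genes in mouse build mm9, where the capitals mark the 8-base run CTTTTCAG, the most common run at the ends of the 50 listed histone genes. It spans the loop and the bases of the stem next to it. The run was found on the transcribed strand in 28 of the 50 histone genes and in 140 of 16507 other listed genes (0.848%), from 150 bases before to 100 bases after the annotated gene end.
H4c6, chr13:23643154-23643181, minus strand: ctcaaaggccCTTTTCAGggccacccac
H4c3, chr13:23789952-23789979, minus strand: acaaaaggccCTTTTCAGggccacccac
H1f1, chr13:23856255-23856282, plus strand: cccaacggctCTTTTCAGagccaccaac
H2ac19, chr3:96049949-96049976, plus strand: taaaaaggctCTTTTCAGagccacccac

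The second are small nucleolar RNAs (snoRNAs), which guide the chemical modification of ribosomal RNA and are mostly cut from introns of host genes. Capitals mark the last ACA of each, the box near the 3′ end that names the H/ACA class. Gm26447 had the largest decrease, and Snora65 is shown as the snoRNA with the largest difference upward.
Gm26447, chr16:23111374-23111502, plus strand: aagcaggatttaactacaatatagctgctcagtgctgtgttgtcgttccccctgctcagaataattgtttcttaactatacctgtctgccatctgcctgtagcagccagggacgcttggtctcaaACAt
Snora65, chr2:32818811-32818940, plus strand: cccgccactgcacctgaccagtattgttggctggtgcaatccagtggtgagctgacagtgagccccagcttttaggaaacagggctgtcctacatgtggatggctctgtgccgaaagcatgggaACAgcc

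Among the 11551 genes of at least 1 FPKM in either 4 h library, 336 (2.91%) were at least 1.5-fold higher and 1039 (8.99%) at least 1.5-fold lower with HU210. The median change of these genes was -0.08. By the rule below, more of the differences were placed in the DMSO 4 h library than in the HU210 4 h library, and most were placed in neither. A change was placed in the HU210 library where HU210 4 h was past 1.5-fold from the mean of DMSO 2 h, 6 h and 8 h in the direction of the change and outside the range of all 4 DMSO libraries. It was placed in the DMSO library where DMSO 4 h was past 1.5-fold from that mean in the opposite direction and outside the range of the other 3. Of the 11434 genes listed at all 4 time points, 27 (0.236%) were placed in the HU210 library as higher and 100 (0.875%) as lower. The counts for the DMSO library were 100 (0.875%) for genes higher with HU210 and 359 (3.14%) for genes lower with HU210. Without DMSO 8 h the HU210 library had 45 higher genes in place of 27.

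Of the 1022 lower genes listed at all 4 time points, DMSO 4 h alone departed from the other DMSO libraries in 345 (33.8%), HU210 4 h alone in 86 (8.42%), both in 14, and neither passed its limits in 577. Of 330 higher genes the counts were 97 (29.4%), 24 (7.27%), 3 and 206. The departure of DMSO 4 h was the larger of the 2 in 799 of the 1022 lower genes and in 243 of the 330 higher genes. The median lower gene was 0.75 lower on the log2 scale, made up of HU210 4 h at -0.25 and DMSO 4 h at +0.52 from the other DMSO libraries. When HU210 4 h was compared with the mean of DMSO 2 h, 6 h and 8 h in place of its own control, 53 genes were higher and 136 lower.

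**Figure D1:**
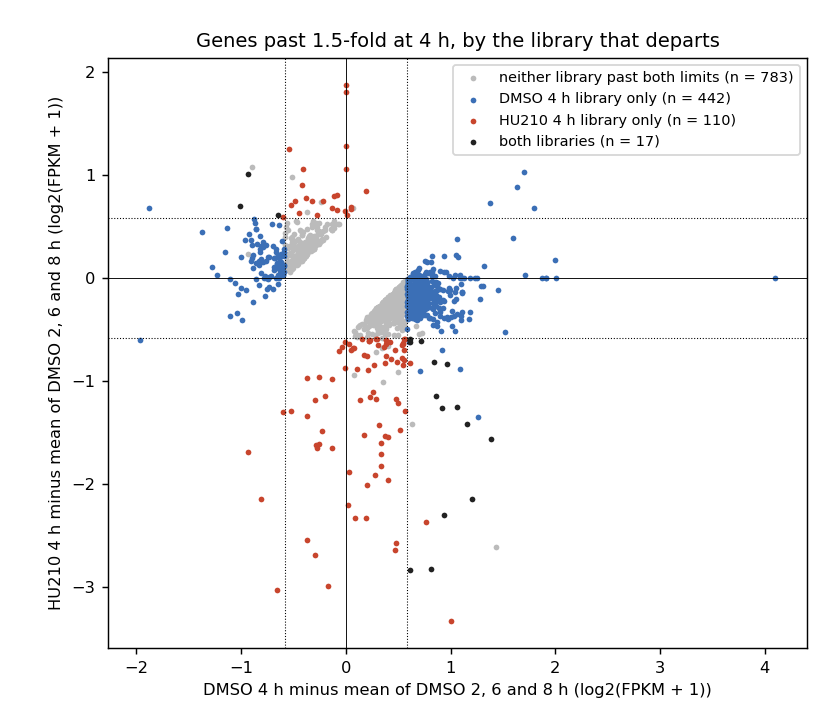
Each point is a gene past 1.5-fold at 4 h, placed by how far DMSO 4 h (horizontal) and HU210 4 h (vertical) stood from the mean of DMSO 2 h, 6 h and 8 h, in log2(FPKM + 1), with dotted lines at 1.5-fold. The 442 blue genes, where only DMSO 4 h departed, outnumber the 110 red genes, where only HU210 4 h departed, and the longest downward departures of HU210 4 h reach -3.33.

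DMSO 4 h was also the control that stood furthest from its own group. Over 11306 genes with a mean of at least 1 FPKM, 505 genes (4.47%) in DMSO 4 h were past 1.5-fold from the mean of the other 3 DMSO libraries, against 141 in DMSO 2 h, 271 in DMSO 6 h and 254 in DMSO 8 h. Among the HU210 libraries the same count was 280 in HU210 4 h and between 184 and 250 in the others. With 1 library a condition, a batch, a time effect in the control and a property of a single library cannot be told apart.

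The genes higher in the HU210 library itself were few. Sod1, the cytosolic superoxide dismutase (chr16:90220987-90226567), was at 600.6 FPKM in HU210 4 h and 255 in DMSO 4 h, with 424, 350.2 and 334 in DMSO 2 h, 6 h and 8 h. The other HU210 libraries held 304 to 319 FPKM, so HU210 4 h was the highest of the 8 and DMSO 4 h the lowest. The change was 1.23 (2.35-fold), of which 0.71 lay above the other DMSO libraries.

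Actb, cytoplasmic beta-actin (chr5:143664794-143668433), was at 5793 FPKM in HU210 4 h and 2464 in DMSO 4 h, with 2656, 3332 and 4631 in DMSO 2 h, 6 h and 8 h. HU210 2 h was also high, at 4827, while HU210 6 h and 8 h were at 3378 and 3447. Its paralog Actg1 had 1363 and 1221 FPKM at 4 h, a change of 0.16. Actb thus varied nearly as widely among the DMSO libraries as between the 4 h pair.

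Nab2, a co-repressor of the Egr transcription factors, was the immediate-early gene with the largest 4 h difference. It stood at 24 FPKM in HU210 4 h and 22.1 in HU210 2 h, against 11.6, 12.4, 17.3 and 12.1 in DMSO 2, 4, 6 and 8 h. HU210 2 h and 4 h were above all DMSO libraries, and HU210 6 h (12.5) and 8 h (16.7) were within their range. Its relative Nab1 was at 25.7 against 16.2 FPKM, a change of 0.64, with DMSO 6 h also at 25.7. Egr1, the factor that Nab proteins repress, was at 24.3 and 18.8 FPKM at 4 h (change 0.35) and at 36.8 and 18.3 at 2 h. Over the 32 measured immediate-early genes 2 (6.25%) were past 1.5-fold higher and 0 lower, against 2.91% and 8.99% of all genes. The 2 were Nab2 and Nab1, and the median change of the 32 was 0.04.

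The other genes that the selection rule names among those higher only in the HU210 library were Gm10224 (change 1.32), Rps13-ps1 (1.08), Pdzk1ip1 (1.07), Tm2d1 (0.89), Dimt1 (0.88), Cdk5rap3 (0.81), Slc26a11 (0.66), Ccdc120 (0.65) and Zbed5 (0.64). Dimt1 methylates 18S ribosomal RNA and Cdk5rap3 belongs to the UFM1 protein modification machinery. Cdk5rap3 was at 43.6 FPKM in HU210 4 h and between 24 and 30.6 in the other 7 libraries. Tm2d1 was at 12.1 FPKM in HU210 4 h and between 4.94 and 8.36 in the others. Rps13-ps1 is named as a pseudogene of Rps13, whose own change was 0.25, and reads could be split between such near-identical copies.

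The genes lower in the HU210 library were of 3 kinds. Of the 100, 56 had transcripts under 300 bases, and 49 of these were snoRNAs. A further 14 were replication-dependent histone genes. The others were longer transcripts of other genes, of which those with the largest decreases are described next.

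Zbtb20, a zinc finger transcriptional repressor (chr16:42875994-43642715), had the largest decrease of the genes of at least 300 bases placed only in HU210. It was at 3.17 FPKM in HU210 4 h and 10.5 in DMSO 4 h, with 10.0, 9.57 and 6.09 in DMSO 2 h, 6 h and 8 h. HU210 2 h (5.55) was also below every DMSO library, HU210 8 h (5.52) was too, and HU210 6 h (10.1) was not. The change was -1.46 (2.75-fold lower), with HU210 4 h at -1.17 from the other DMSO libraries.

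Zmym1, another zinc finger gene, was at 4.91 FPKM in HU210 4 h and 14.4 in DMSO 4 h, with 12.2, 7.64 and 9.36 in the other DMSO libraries. Trappc2, a subunit of the TRAPP vesicle tethering complex, was at 6.66 against 16.6 FPKM, with 10.5 to 16.5 in the other DMSO libraries. In both genes HU210 4 h was the lowest of the 8 libraries. Macf1, the giant linker of microtubules and actin filaments, was at 9.22 FPKM in HU210 4 h, 21.5 in DMSO 4 h and 12.3 to 19.6 in the other 6 libraries.

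Zbtb10 (change -1.19), Gm8618 (-1.19), the pseudogene Gm7117 (-1.17) and the ubiquitin ligase Znrf2 (-1.44) followed by the same rule. Znrf2 was at 10.6 FPKM in HU210 4 h and 11.3 in DMSO 6 h, so that its place below the controls rested on a small gap. Its DMSO values ran from 11.3 to 42.8 FPKM.

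**Figure D2:**
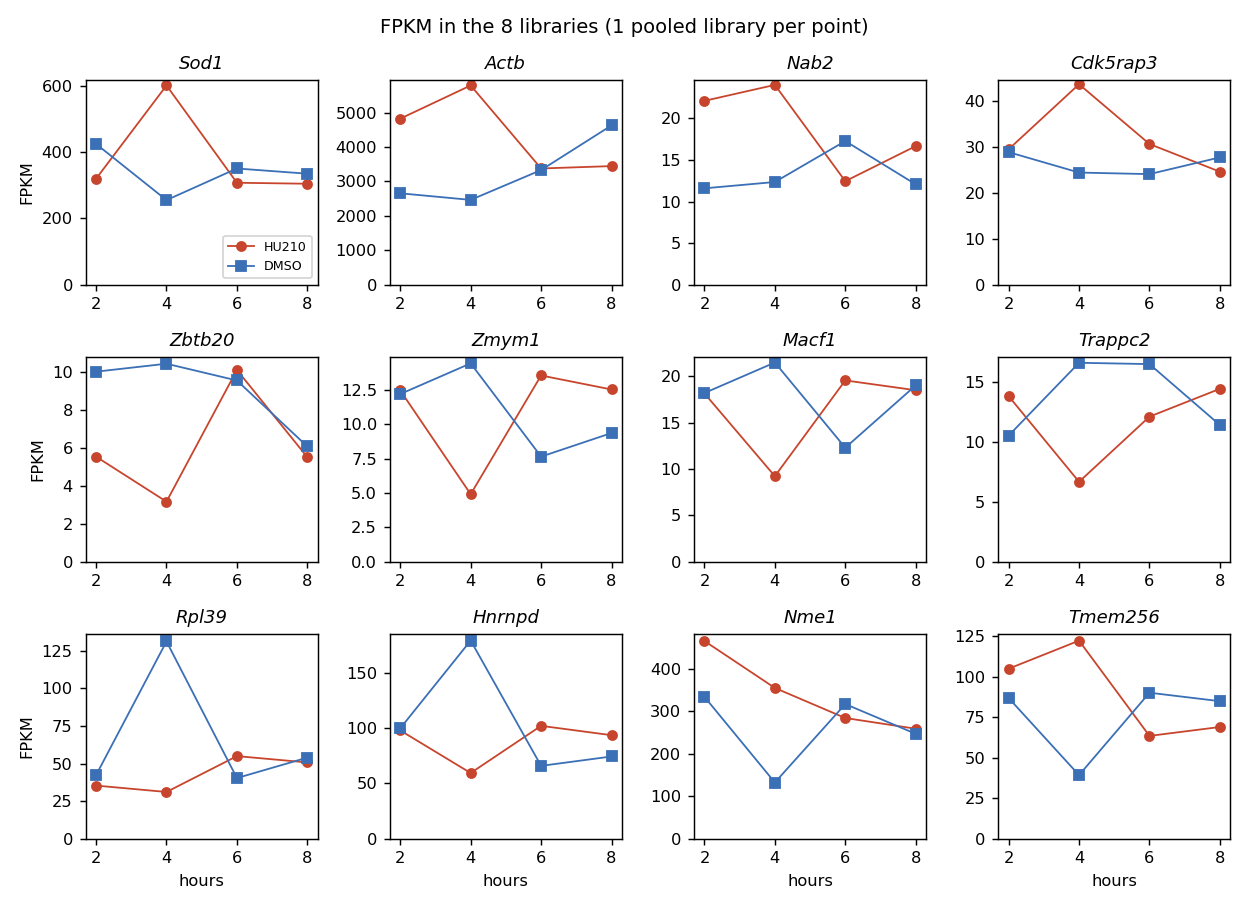
FPKM (vertical, from 0) by hours of treatment (horizontal) for 12 genes, with HU210 in red circles and DMSO in blue squares and 1 pooled library per point. In the upper 8 panels HU210 4 h is the highest or lowest of the 8 libraries, as for Sod1 at 600.6 and Zbtb20 at 3.17 FPKM, and in the lower 4 DMSO 4 h is, as for Rpl39 at 131 FPKM.

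Replication-dependent histone genes were low in HU210 4 h and in HU210 2 h. All 50 histone genes of the list reached 1 FPKM at 4 h; 27 were past 1.5-fold lower (54.0%) and 0 higher, against 8.99% and 2.91% of all genes. The median change was -0.62, with HU210 4 h at -0.36 and DMSO 4 h at +0.24 from the other DMSO libraries. The median level was 2.74 in HU210 4 h and 2.62 in HU210 2 h on the log2(FPKM + 1) scale, against 3.35, 3.57, 3.26 and 3.01 in DMSO 2, 4, 6 and 8 h. HU210 6 h and 8 h were at 3.44 and 3.26, within the DMSO range. DMSO 4 h was the highest of the 8 libraries. In bulk RNA, fewer cells in S phase and less histone mRNA per cell cannot be told apart. Of the 50, 35 were below all 4 DMSO libraries in HU210 4 h and 36 in HU210 2 h, 0 in HU210 6 h and 2 in HU210 8 h. Of all measured genes 25.8%, 23.9%, 9.09% and 8.13% were so placed.

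The core histones did not move as a block. All 12 H4 genes were below all 4 DMSO libraries in HU210 4 h, 10 were past 1.5-fold lower, and the median change was -0.93. All 6 H3 genes were also below the 4 DMSO libraries, with a median change of -0.61, and 10 of 13 H2B genes, with a median of -0.57. The 5 linker histone H1 genes had a median of -1.01 and 4 past 1.5-fold. The 14 H2A genes had a median change of 0.21, with 3 past 1.5-fold lower (H2ac18, H2ac19 and H2ac20) and the others between -0.30 and 0.46.

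In H4c6 the level was 3.77 FPKM in HU210 4 h and 3.84 in HU210 2 h, against 7.09, 10.9, 7.48 and 6.99 in DMSO 2, 4, 6 and 8 h, and 9.15 and 9.48 in HU210 6 h and 8 h. H4c3 was at 4.93 and 5.28 FPKM in HU210 4 h and 2 h, against 7.29 to 13.6 in the DMSO libraries. H1f1 was at 2.01 and 1.70 FPKM in HU210 4 h and 2 h, against 3.49 to 6.14. These genes share a pattern of low HU210 2 h and 4 h libraries. The 4 genes whose ends are printed above are among the largest decreases placed only in HU210, so their low HU210 4 h values were given by that choice. H2bc3 was at 4.45 and 4.15 FPKM, against 6.81 to 11.3. Of the 28 histone genes that hold the 8-base run, 20 were past 1.5-fold lower at 4 h, with a median change of -0.92. Of the 22 without the run 7 were, with a median of -0.46. Whether the run has a part in this difference was not tested. Among the genes with the run, H2ac7, an H2A gene, was not low in HU210 4 h or HU210 2 h. It was at 29.6 FPKM in HU210 4 h, 33.9 in HU210 2 h and between 21.3 and 32.8 in the DMSO libraries. Histone genes of a class are near-identical copies, so the values of single genes depend on how reads were divided among them.

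**Figure D3:**
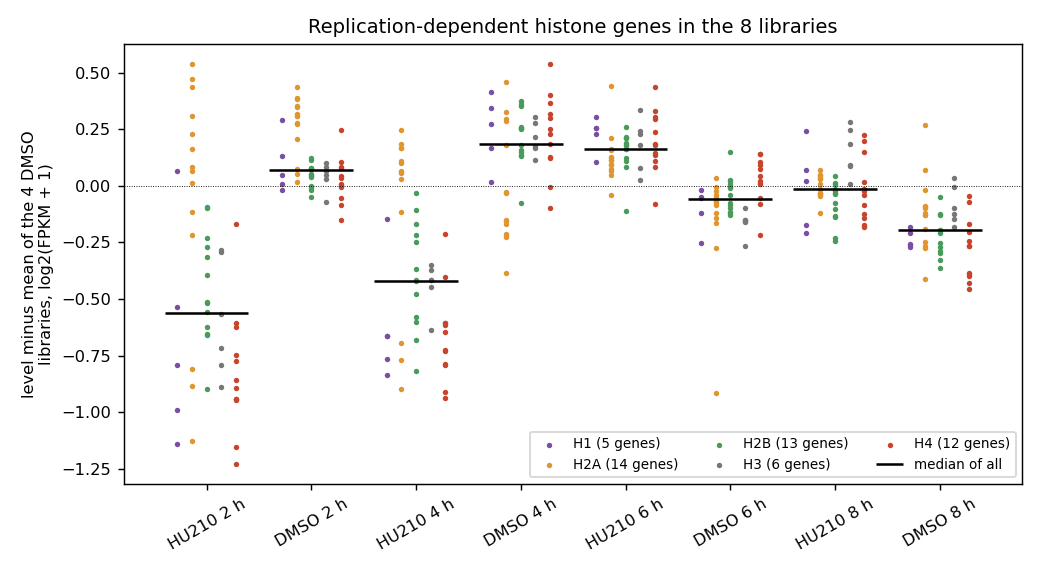
Levels of 50 histone genes in each library minus the gene's mean over the 4 DMSO libraries (vertical, log2(FPKM + 1)), coloured by histone, with black bars at the median. HU210 2 h and HU210 4 h lie lowest, apart from most H2A genes, and all 12 H4 genes are below 0 in HU210 4 h.

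The snoRNAs were lower in the same libraries but also in a control. Of 413 listed snoRNAs, 128 had at least 1 FPKM in either 4 h library. Of these 71 were past 1.5-fold lower (55.5%) and 23 higher (18%), with a median change of -0.75. Over all genes the shares were 8.99% and 2.91%. A snoRNA listed at 0 in either library could enter only through the other, so that its passing 1.5-fold was fixed by this filter. The shares of snoRNAs and of all genes therefore do not compare like with like. HU210 4 h was at -0.58 and DMSO 4 h at 0.00 from the other DMSO libraries. The median levels were 2.51, 2.14, 3.11 and 2.60 in HU210 2, 4, 6 and 8 h on the log2(FPKM + 1) scale. They were 2.93, 2.96, 3.26 and 2.32 in DMSO 2, 4, 6 and 8 h, so that DMSO 8 h lay between the HU210 4 h and 2 h values. Histone mRNAs and snoRNAs both lack poly(A) tails, and the mRNA was purified on oligo-dT beads. The part of that purification in these values was not tested.

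Gm26447 was at 6.34 FPKM in HU210 4 h and 54.7 in HU210 2 h, against 165, 147, 111 and 20.6 in DMSO 2, 4, 6 and 8 h. HU210 4 h was the lowest of the 8, and DMSO 8 h was also well below the other controls. Its host gene Eif4a2, which encodes an RNA helicase of the translation initiation family, had a change of -0.29 against -4.33 for the snoRNA. Snora65, within the ribosomal protein gene Rpl12, was at 124 FPKM in HU210 4 h and 20.3 in DMSO 4 h, but DMSO 8 h held 162. Its difference of 2.55 was placed in the DMSO library, and that of Rpl12 was 0.71.

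The remaining short transcripts named by the selection rule were mostly listed at 0 in several libraries. Snora52 was listed at 0 in HU210 4 h and at 16.2 FPKM in DMSO 4 h, with 6.26 FPKM in HU210 6 h and 0 in the other 5 libraries. Snora64 was listed at 0 in HU210 4 h and at 15.5 in DMSO 4 h, with 41.1 in DMSO 6 h and 0 in DMSO 8 h. Gm23455 and Gm22059 were listed at 2.92 and 2.66 FPKM in HU210 4 h and at 0 in DMSO 4 h. Transcripts this short lie below the size of the sequenced fragments, and no fold is given for them against a library at 0.

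Rpl39 had the largest decrease placed only in the DMSO 4 h library among genes of at least 300 bases. Rpl39, a ribosomal protein gene (chrX:34622515-34625397), was at 31.1 FPKM in HU210 4 h and 131 in DMSO 4 h, with 42.3, 40.4 and 54.0 in DMSO 2 h, 6 h and 8 h. The other HU210 libraries held 35.4, 55.0 and 50.8 FPKM. DMSO 4 h stood alone, and of the 2.04 by which the HU210 value was lower 1.52 lay in the control. Rpl39 overlaps the snoRNA gene Snora69 on the same strand, whose change was -1.97.

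Hnrnpd, the AU-rich element binding protein AUF1 (chr5:100387445-100407957), was at 59.5 FPKM in HU210 4 h and 179 in DMSO 4 h, with 65.9 to 99.9 in the other DMSO libraries. Rbm12 (change -1.56), Tmem65 (-1.52), Yipf4 (-1.51) and Hspe1 (-1.48) had the same form. Rbm12 overlaps Nfs1 and Cpne1 on the same strand, whose changes were 0.12 and 0.33. Hspe1 and Hspd1, the co-chaperonin and chaperonin of mitochondria, are neighbours transcribed in opposite directions on chromosome 1. Hspe1 was at 55.6 and 157 FPKM and Hspd1 at 132 and 335, with DMSO 4 h the highest of the 8 libraries for both genes.

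In the other direction, Nme1, a nucleoside diphosphate kinase (chr11:93818293-93829835), was at 355 FPKM in HU210 4 h and 132 in DMSO 4 h, with 334, 317 and 247 in DMSO 2 h, 6 h and 8 h. HU210 2 h held 466. Nme2, its neighbouring near-copy, had a change of -0.64 (26.6 against 42.0 FPKM), so that the pair moved in opposite directions and reads may be split between them. Tmem256 was at 122 and 39.2 FPKM, with 84.8 to 90.0 in the other DMSO libraries. Mamdc4 (change 1.82) overlaps Phpt1 on the same strand, whose change was -1.02, and Hypk (1.38) overlaps Serf2 on the same strand, whose change was -0.02. Rplp0-ps1 (1.46) is named as a pseudogene of Rplp0, whose change was 0.50, and Gm17415 (1.4) overlaps Hdlbp on the other strand.

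Genes placed in the DMSO library had marked sequence features. Among genes of at least 300 bases and 1 FPKM in both 4 h libraries, the 299 lower with HU210 and placed only in DMSO had a median GC content of 46.4% and a median 3′ UTR of 1355 bases, against 50.4% and 1019 bases for all 10956. The 81 higher ones had a median GC content of 54.2% and 3′ UTRs of 303 bases, and 21 of the 81 were annotated pseudogenes, against 414 of the 10956. The 13 higher and 35 lower genes placed only in HU210 had median GC contents of 53.7% and 48.2%.

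The same feature ran through the whole 4 h comparison. Over 11072 genes of at least 1 FPKM in both 4 h libraries, the Spearman correlation of the change with transcript GC content was 0.52, given as a description across genes that share libraries. It was 0.41 for HU210 4 h and -0.45 for DMSO 4 h, each against the mean of the other DMSO libraries, so that the pair of libraries moved in opposite directions along GC content. In the tenth of genes with the lowest GC content (median 40.3%) the median change was -0.34, made up of -0.15 in HU210 4 h and +0.18 in DMSO 4 h. In the tenth with the highest (median 60.1%) it was 0.17, with 0.06 and -0.12. The share of genes at least 1.5-fold lower went from 17.8% to 3.07% between these bins and the share higher from 1.26% to 5.05%.

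Transcript length and 3′ UTR length had weaker relations. For 3′ UTR length the correlation was -0.27 for the change, -0.28 for HU210 4 h and 0.20 for DMSO 4 h, over 10401 genes. For transcript length it was -0.22, -0.29 and 0.12. Against the other libraries of its own treatment, DMSO 4 h had the strongest negative correlation with GC content (-0.45), HU210 4 h the strongest positive (0.40), and the other 6 lay between -0.26 and 0.35. Whether library preparation or fragment amplification had a part in the GC relation was not tested.

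**Figure D4:**
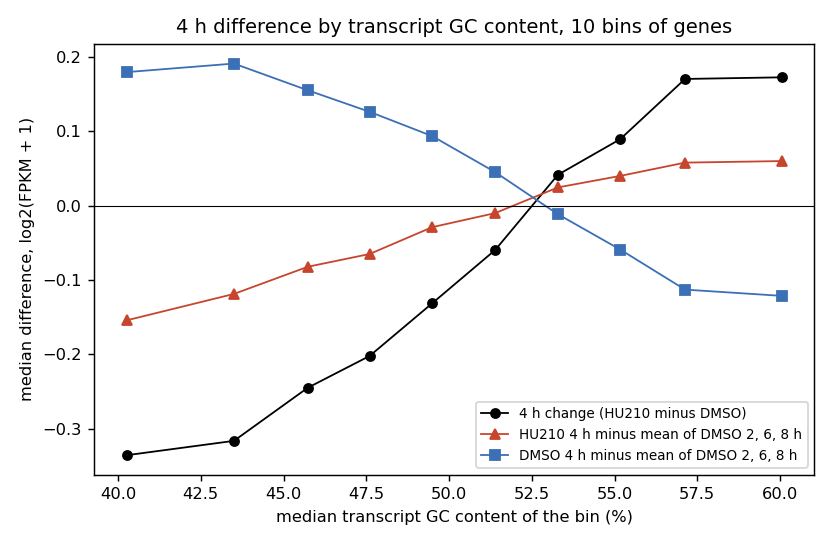
Median difference in log2(FPKM + 1) (vertical) for 10 bins of genes by transcript GC content (horizontal, median percent of the bin), for the 4 h change (black) and for each 4 h library against the mean of DMSO 2 h, 6 h and 8 h. The change goes from -0.34 to 0.17, with DMSO 4 h falling from 0.18 to -0.12 as HU210 4 h goes from -0.15 to 0.06.

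Of 29 gene lists with at least 10 measured members, 22 had a median change below 0 and 7 above, and in 18 the DMSO 4 h library stood further from the other DMSO libraries than HU210 4 h did. Counts below are to be read against 2.91% of genes higher and 8.99% lower over all genes. Removing the trend with GC content and length turned the sign of 3 of the 21 medians that were 0.1 or more from 0. These 3 were cullins and their regulators, nuclear import and export receptors, and recombination and cross-link repair. Other medians kept their sign but moved toward 0, as for membrane lipid synthesis (-0.20 to -0.01), Polycomb proteins (-0.13 to -0.01) and actin nucleation factors (-0.21 to -0.06). Microtubule regulators went from -0.17 to -0.06 and the receptor to MAP kinase list from -0.26 to -0.10. Histones (-0.62 to -0.65), ribosomal protein genes (0.15 to 0.16) and postsynaptic density genes (0.13 in both) hardly moved.

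Among lists of RNA processing and decay, the AU-rich element binding, deadenylation and SR lists had medians below 0, and the snRNP and exosome lists had medians near 0. Of 21 AU-rich element binding proteins 7 were past 1.5-fold lower and 0 higher, with a median change of -0.28. Hnrnpd led, followed by Dhx36 (change -0.97), Cpeb2 (-0.88) and Tial1 (-0.75). Of 32 genes of deadenylation and decapping, which begin mRNA decay by removing the poly(A) tail and the cap, 6 were lower and 0 higher (median -0.24), led by Cnot6 (-1.03), Cnot7 (-0.89), Cnot6l (-0.89) and Cnot2 (-0.77). Of 20 SR splicing factors 3 were lower (Srsf1 -1.13, Srsf6 -0.69, Srsf2 -0.60) with a median of -0.28. In contrast, the 40 snRNP proteins of the spliceosome had a median of 0.02, with 3 lower (Snrpg -1.04, Snrpe -0.76, Prpf31 -0.62) and Snrpf higher (0.59). The 15 genes of the RNA exosome, the 3′ to 5′ nuclease complex, had a median of 0.03, with Dis3 (-0.72) and Exosc3 (-0.61) lower and Exosc4 (0.69) higher. The median changes of the AU-rich and deadenylation lists were -0.07 and -0.05 once the GC and length trend was removed, and their median GC contents were 43.5% and 46.6%.

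The ribosomal protein genes went both ways. Of 79, 15 were past 1.5-fold higher (19%) and 10 lower (12.7%), with a median of 0.15. The 79 include a gene listed as Zbtb11 (change -0.44), which is not named as a ribosomal protein gene and did not pass 1.5-fold. The leading higher members were Rps14 (816 against 318 FPKM, change 1.36), Rpl35 (401 against 165, 1.27), Rpl17 (202 against 85.8, 1.22) and Rps27 (52.2 against 22.0, 1.21). For these genes DMSO 4 h was the lowest of the 8 libraries. Rpl39, Rpl22 (-1.08), Rps27a (-0.96) and Rpl36a (-0.89) led the lower ones, with DMSO 4 h the highest. In all, 8 of the higher and 7 of the lower members were placed in the DMSO library and 0 in the HU210 library. The summed FPKM of the 79 was 31052 in HU210 4 h and 25834 in DMSO 4 h, with 27487 to 29536 in the other DMSO libraries.

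The 4 lists of protein turnover, folding and translocation had medians below 0. With the GC and length trend removed, that of the cullins (-0.14) was 0.07 and that of the ubiquitin-conjugating enzymes (-0.37) was -0.18. Those of the chaperones (-0.20) and of translocation into the endoplasmic reticulum (-0.15) were then -0.03 and -0.005. Of 31 ubiquitin-conjugating enzymes 11 were past 1.5-fold lower (35.5%) and 0 higher, with a median of -0.37. HU210 4 h was at -0.07 and DMSO 4 h at +0.24, and 8 were placed in the DMSO library. Ube2e3 (16.2 against 39.4 FPKM), Ube2n (30.5 against 67.9), Ube2d2a (21.4 against 45.3) and Ube2q2 (3.45 against 7.84) led, each with DMSO 4 h the highest of the 8 libraries. Of 27 cullins and their regulators 3 were lower, of which 1 was placed in the DMSO library. They were led by Cand1 (-1.19), an exchange factor of cullin ligases, with Skp1 at -0.74 and Cul2 at -0.71. Skp1 was listed only at 4 h and could not be placed. Of 40 chaperones 7 were lower and 0 higher, with 4 placed in the DMSO library, led by Hspe1, Hspd1 (-1.33), Hsp90aa1 (-0.90) and Dnajb6 (-0.86), and their median was -0.20 with HU210 4 h at 0.00. Of 24 genes of protein translocation into the endoplasmic reticulum 4 were lower (Sec62 -1.18, Sec61b -0.83, Sec63 -0.65, Tram1 -0.61). Sec63 was at 67.1 FPKM in HU210 4 h and 106 in DMSO 4 h, but at 36.7 to 44.9 in the other DMSO libraries. Against those HU210 4 h was 0.73 higher. HU210 2 h, 6 h and 8 h held 80.0, 89.1 and 79.2 FPKM of Sec63, each above the DMSO library of its hour.

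Of 10 measured genes of the hypoxia-inducible factor pathway 4 were lower and 0 higher, with a median of -0.38. They were Siah2 (-0.81), Hif1a (-0.73), Siah1a (-0.71) and Cul2 (-0.71). Hif1a, the oxygen-regulated transcription factor, was at 23.5 FPKM in HU210 4 h and 39.5 in DMSO 4 h, with 27.8 to 32.1 in the other DMSO libraries. The 29 target genes of that factor had a median of -0.02, with 4 lower, Ankrd37 (-0.87), Pfkfb3 (-0.77), Higd1a (-0.73) and Pfkfb4 (-0.69). Ankrd37 was at 4.83 FPKM in HU210 4 h and 3.49 to 4.74 in the other DMSO libraries, against 9.65 in DMSO 4 h.

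Cytoskeletal lists had several lower members. Of 29 actin nucleation factors 5 were lower and 1 higher (median -0.21), led by Enah (12.5 against 29.8 FPKM, change -1.19), which extends actin filaments at growth cone tips, and Wasl (-0.95), Wasf2 (-0.88) and Jmy (-0.74), with Fmnl1 higher (0.61). Of 41 microtubule regulators 6 were lower and 1 higher (median -0.17), led by Macf1 and followed by A230056J06Rik (-0.82), Pafah1b1 (-0.74), the dynein regulator Lis1, and Mapre1 (-0.73), with Mtcl1 higher (0.65). Macf1 was the only microtubule gene placed in the HU210 library. Enah was at 13.5 to 18.7 FPKM in the other DMSO libraries, which put most of its difference in DMSO 4 h.

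Of 38 genes from the receptor to Stat3 and the MAP kinases 7 were lower and 1 higher, with a median of -0.26. Rap1b (-0.93) and Gnai3 (-0.75) were among the lower and Ralb (0.70), a small GTPase, was higher. Rap1b was at 101 FPKM in HU210 4 h and 192 in DMSO 4 h, with 102 to 139 in the other DMSO libraries. Gnai3, an inhibitory G protein subunit, was at 29.9 and 50.8 FPKM, with 32.3 to 38.5 in the other DMSO libraries. For both genes HU210 4 h was just below the range of the controls and DMSO 4 h further above it.

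Membrane lipid synthesis had 6 lower and 0 higher of 30 genes (median -0.20). Ugcg, which makes glucosylceramide, was at 7.90 and 21.4 FPKM, with 9.39 to 11.6 in the other DMSO libraries. St8sia3 (-1.25) and B4galt6 (-0.94), enzymes of ganglioside synthesis, and Etnk1 (-0.87), a kinase of phosphatidylethanolamine synthesis, followed, and 5 of the 6 were placed in the DMSO library. Of 29 pyrimidine genes 5 were lower and 3 higher, with Nme1, Dhodh (37.0 against 19.1 FPKM, 0.92) and Tymp (0.89) higher and Cmpk1 (-0.80), Nme7 (-0.77), Dck (-0.74) and Nme2 among the lower.

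Nuclear and cell cycle lists were spread around smaller medians. Of 24 G2/M cyclins and kinases 3 were lower (Wee1 -0.96, Rps6ka3 -0.90, Ccna2 -0.82), all placed in DMSO, with a median of -0.19. Of 31 Polycomb proteins 7 were lower, led by Suz12 (-0.94), Eed (-0.91), Pcgf3 (-0.85) and Pcgf5 (-0.75), and Cbx8 was higher (0.71). Suz12 and Eed are core subunits of the complex that methylates histone H3. Of 42 recombination and cross-link repair genes 3 were lower, Rad51c (-0.87), Rnf138 (-0.82) and Atr (-0.66), of which Rad51c was placed in HU210 (3.69 FPKM against 4.87 to 7.59 in the DMSO libraries). Of 27 RNA polymerase II elongation genes 3 were lower (Morf4l1 -0.89, Cdc73 -0.74, Ccnt1 -0.66) and 2 higher (Mepce 0.76, Nelfb 0.66). Of 27 nuclear transport receptors 5 were lower, led by Kpna2 (-1.15), Kpna3 (-1.04), Kpna4 (-0.84) and Kpnb1 (-0.68), the alpha and beta importins.

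Mitochondrial lists had medians near 0. The 20 genes of mitochondrial dynamics and transport had a median of 0.04, in which the paralogs Rhot2 (16.8 against 7.09 FPKM, 1.14) and Rhot1 (20.9 against 33.2, -0.64), both of which tether mitochondria to motor proteins, differed in opposite directions, and Mff was lower (-0.83). Rhot2 was at 8.07 FPKM in DMSO 8 h, near its DMSO 4 h value. The 31 mitochondrial import genes had a median of 0.03, with Tomm70a (-0.92), Immp2l (-0.68) and Pam16 (-0.60) lower and Timm44 (0.70) and Timm23 (0.59) higher. The 17 measured genes of the postsynaptic density had a median of 0.13, with Dlgap4 (0.75) and the NMDA receptor subunit Grin1 (0.73) higher and Dlg1 (-1.06) lower. Grin1 was not listed at every time point.

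**Figure D5:**
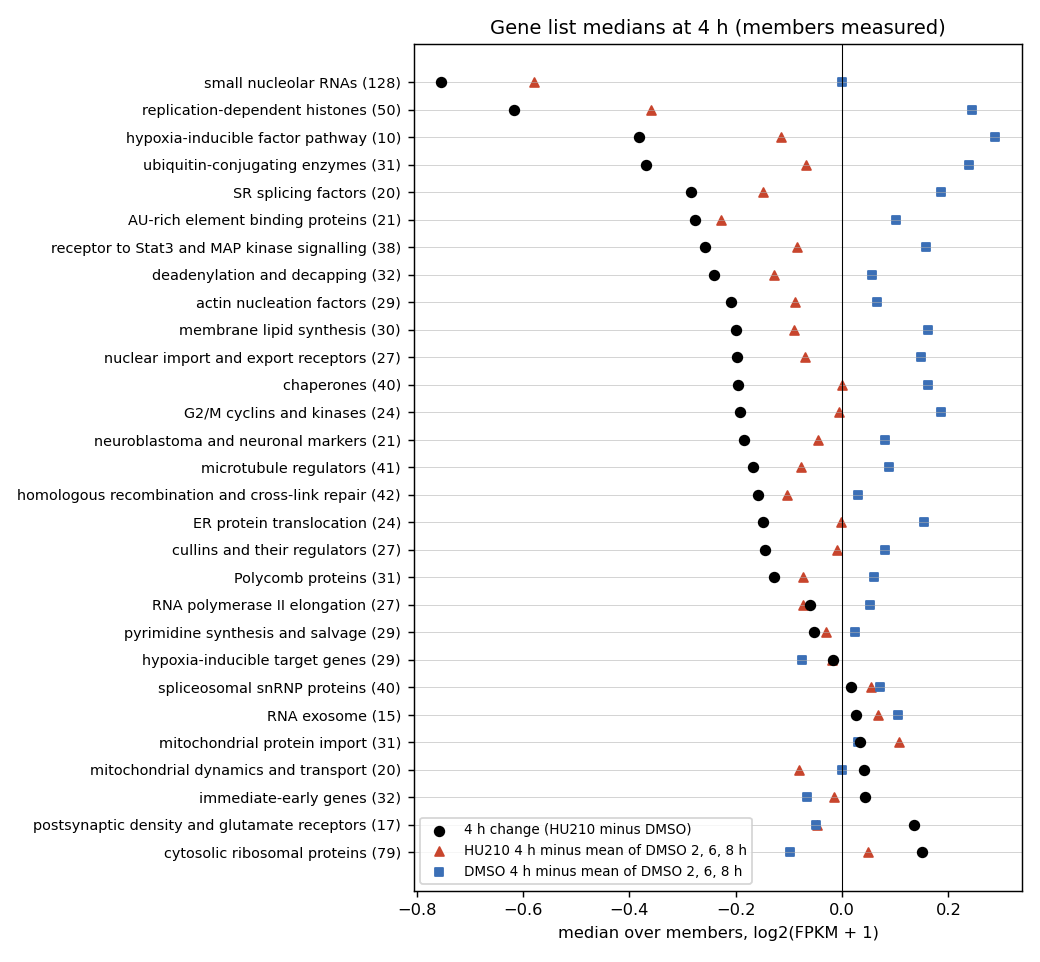
Median over the measured members of each of 29 gene lists (vertical, number measured in brackets) in log2(FPKM + 1) (horizontal) for the 4 h change and for each 4 h library against the mean of DMSO 2 h, 6 h and 8 h. The snoRNAs (-0.75) and histones (-0.62) lie furthest to the left with HU210 4 h itself below 0, while ubiquitin-conjugating enzymes (-0.37) have HU210 4 h near 0 and DMSO 4 h at 0.24.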

How the data were processed

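RNA from N2A cells was sequenced by the authors from 8 pooled libraries, aligned with TopHat2 2.0.8 (Bowtie2 2.1.0, SAMtools 0.1.7) to mouse build mm9 with an Ensembl annotation, and quantified with Cufflinks and Cuffdiff with multi-read correction, fragment bias correction and upper-quartile normalisation. The deposited values are FPKM + 1 per gene and condition. The tables also hold the authors' fold changes, p-values and q-values, which were not used. Here 1 was subtracted to give FPKM, and changes were computed on the log2(FPKM + 1) scale with a limit of 1.5-fold. Transcript length, GC content, coordinates and printed sequences came from the GENCODE vM1 annotation and the NCBIM37 genome, the same build as mm9. Trends with GC content and length were fitted by loess (span 0.3, degree 1, R 4.3.3). Spread between experiments and read depth were not analysed here, so no interval is given.

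Named genes were, for each direction, the 12 largest changes placed only in HU210 and the 6 placed only in DMSO (at least 1 FPKM in both 4 h libraries and 300 bases), up to 4 members past 1.5-fold of each gene list, the 3 largest changes of transcripts under 300 bases, Cnr1 and the cell type markers. Actg1, Egr1, Eif4a2, Rpl12, Rps13, Rplp0, Phpt1, Serf2, Hdlbp, Snora69, Nfs1, Cpne1, H2ac7, H2ac18 and H2ac20 were set beside these after their values were seen. Some items that this rule names are not reported here. The members and lists were chosen with earlier results of these data known. The placement rule and the trend fit were tested on simulated data.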

Additional observations from a re-analysis of the deposited data

Results flagged for a closer look

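At 4 h some gene lists stood on the other side of 0 from a later time point, which was not tested because each time point holds 1 library a side. The median log2 change of the hypoxia-inducible factor pathway was -0.38 in the 4 h pair, against 0.21 in the 6 h pair and 0.15 in the 8 h pair. That of the replication-dependent histones was -0.62 in the 4 h pair, against 0.23 and 0.19 in the later pairs. For snoRNAs the 4 h pair gave -0.75 and the 8 h pair 0.14.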

How the results depend on the processing

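Of all listed genes, 358 were higher and 1070 lower with HU210 at 4 h. These counts were 778 and 1730 with a pseudocount of 0.1, 70 and 199 with all 4 DMSO libraries averaged as the reference, 61 and 170 with DMSO 2, 6 and 8 h averaged, and 1094 and 527 after removal of the trend with GC content and length. Of the 1094 higher genes only 373 had at least 1 FPKM in either library, so most were genes near 0. With a limit of 1.3-fold, the second cutoff of the study, there were 1095 and 2399. This alternative was added after seeing the data. Centring the pair gave 566 higher genes and, within 1.5 times of the reported count, 755 lower genes.

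Genes placed in the HU210 library as higher numbered 27. They numbered 45 with a pseudocount of 0.1 and 50 with each library's own GC and length trend removed, an alternative added after seeing the data, and 29 to 45 without 1 of the other DMSO libraries. Genes placed in the DMSO library numbered 152 for higher with a pseudocount of 0.1 and 203 for lower with the trends removed. The sign turned for Ankrd37 with DMSO 2, 6 and 8 h averaged (0.20) and for Sec63 with that reference (0.73) and with all 4 averaged (0.39). Of 148 named genes past 1.5-fold, 105 remained so with the GC and length trend removed, and 53 and 35 of the 146 listed at all time points did against the 2 DMSO references. The cause was not tested. The histone median was -0.65 and the snoRNA median -0.18 with that trend removed, though few transcripts under 300 bases entered its fit. No paired analysis was possible because the 4 h comparison, taken alone, holds 1 library a side.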
